A study of Mus musculus with 4 samples.

Results

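The tumor suppressor p53, encoded by Trp53, and 9 genes that it is known to switch on (Mdm2, Cdkn1a, Ccng1, Sesn1, Zmat3, Phlda3, Trp53inp1, Bbc3 and Pmaip1) were examined in MDSCs treated with EGCG. The members were the rows of the count table that carry these 10 gene names, out of 53465 genes listed, and all 10 had enough reads to be among the 14682 genes tested. MDSCs (myeloid-derived suppressor cells) are immature cells of the myeloid lineage that build up in hosts with a tumor and restrain T cells. Here they came from the spleens of male BALB/c mice that were 6 weeks old when injected with 4T1 cells, a mammary carcinoma line of the same strain; the labels place the sacrifice on day 21, and the methods of the study give 2 weeks for the sorted cells. The cells were collected on magnetic beads with an antibody against Gr-1 (Ly-6G/Ly-6C) and cultured for 6 h in control medium (2 libraries) or with 5 μg/mL EGCG (epigallocatechin-3-gallate, the main polyphenol of green tea; 2 libraries). Both groups thus carried the same tumor, strain and sort and, as labelled, differed in EGCG. The mice, wells or pools behind the libraries are not given in the sources used here, so that the tests measure the spread between these libraries, which may be technical.

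The p53 protein is a transcription factor that is held at a low level by Mdm2, the ubiquitin ligase that marks it for degradation, and that accumulates after DNA damage or other stress. Because Mdm2 is also a target gene of p53, both form a feedback loop. Much of the activation of p53 takes place on the protein, whereas its activity is commonly read from the mRNA of its targets: Cdkn1a for cell cycle arrest, Bbc3 and Pmaip1 for apoptosis, and the others for stress and growth control. The comparison asks whether the transcripts of this pathway differed after 6 h.

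p53 binds DNA through paired copies of a degenerate half-site of 10 bases. Promoter windows of 300 bases (250 before to 50 after a start site, RefSeq, GRCm38.p6) were held for 7 of the 10 genes, and 3 of them are shown: Cdkn1a and Ccng1, whose matches to the p53 site had the fewest mismatches, and Bbc3, the member with the highest log2 fold change. Capitals mark exact half-sites and any 20-base pair of adjoining half-sites with at most 3 mismatches outside the C and G of each core. The half-site pattern reads the same on both strands, and the matches can overlap each other. Each sequence runs 5′ to 3′ on the gene's own strand.
Cdkn1a, upstream start, chr17:29090729-29091028, plus strand: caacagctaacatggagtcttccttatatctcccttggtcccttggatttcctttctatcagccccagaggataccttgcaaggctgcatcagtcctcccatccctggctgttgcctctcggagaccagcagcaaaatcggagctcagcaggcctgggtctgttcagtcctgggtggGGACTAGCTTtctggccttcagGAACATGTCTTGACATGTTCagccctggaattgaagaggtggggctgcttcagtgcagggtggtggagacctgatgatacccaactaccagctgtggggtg
Ccng1, chr11:40755237-40755536, minus strand: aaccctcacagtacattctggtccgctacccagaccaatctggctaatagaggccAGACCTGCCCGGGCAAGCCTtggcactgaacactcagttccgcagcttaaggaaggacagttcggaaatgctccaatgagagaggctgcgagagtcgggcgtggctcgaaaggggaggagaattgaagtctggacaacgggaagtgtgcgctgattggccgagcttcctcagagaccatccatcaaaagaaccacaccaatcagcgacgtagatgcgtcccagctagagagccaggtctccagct
Bbc3, most upstream start, chr7:16309333-16309632, plus strand: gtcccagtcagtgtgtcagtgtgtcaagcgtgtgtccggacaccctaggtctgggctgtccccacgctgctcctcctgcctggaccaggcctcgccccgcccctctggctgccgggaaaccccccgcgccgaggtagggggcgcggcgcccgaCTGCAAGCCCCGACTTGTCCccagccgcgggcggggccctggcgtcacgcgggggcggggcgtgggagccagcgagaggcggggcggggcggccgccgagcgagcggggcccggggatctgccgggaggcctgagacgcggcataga
In the Cdkn1a window, the 20-base match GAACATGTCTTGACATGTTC (51 to 32 bases before this start) had 1 mismatch. The Ccng1 match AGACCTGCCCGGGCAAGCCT also had 1 mismatch, and the Bbc3 match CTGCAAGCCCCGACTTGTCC had 3, as had those of Trp53 and Sesn1, which unlike Bbc3 also hold an exact half-site. A pair of exact half-sites with a spacer of 0 to 13 bases was found in Cdkn1a alone among these genes, and in 0.0731% of all 32851 promoter windows. A single exact half-site occurred in 5 of the 7 genes with a window (Ccng1, Cdkn1a, Mdm2, Sesn1 and Trp53), against 9.55% of all 27025 genes. A 20-base match with up to 3 mismatches occurred in 5 of the 7 (Bbc3, Ccng1, Cdkn1a, Sesn1 and Trp53), against 1.63% of all genes. Some genes have more than 1 window. By window, each pattern was in 5 of the 11 windows of the 7 genes, against 8.36% and 1.38% of all windows. These limits were set after the sequences had been seen, and a match is a description of letters, not of binding.

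The libraries held between 17767318 and 18390385 reads counted on genes, and levels are given as CPM, the read count relative to a library size scaled by TMM. The markers of the sorted cells were high: 10 genes of neutrophils and granulocytic MDSCs summed to 60740 and 72050 CPM in the control libraries and to 81080 and 72060 CPM in the EGCG libraries. None of the 59 markers in 12 cell type lists was at 0 in every library. None was called as changed, beside 0.15% of all tested genes, and Ncr1, Klrb1c, Klf1 and Emcn were not tested. At an unadjusted p under 0.05 by edgeR were 3 of 7 red pulp macrophage, 3 of 3 tested endothelial and 2 of 3 eosinophil markers, beside 12.2% of all tested genes. The lists of T cells, NK cells and plasmacytoid dendritic cells had 0 such markers, and each other list had 1. Red pulp macrophage markers (7 genes) summed to 377.9 and 380.8 CPM in control and 298.9 and 318.1 CPM with EGCG, and endothelial markers (4 genes) to 113.0 and 124.8 CPM in control and 93.9 and 98.0 CPM with EGCG. In such bulk libraries, fewer cells of a type and less RNA per cell cannot be told apart.

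In their median size, the differences of the 10 genes between the groups were close to those of all tested genes. None of the 10 genes (0 of 10) passed the quasi-likelihood test of edgeR at an adjusted p (Benjamini-Hochberg) under 0.05, beside 0.15% of all tested genes (22 of 14682; 0.0136% called higher and 0.136% called lower with EGCG). At an unadjusted p under 0.05 there were 2 genes, Bbc3 (higher with EGCG) and Phlda3 (lower), beside 12.2% of all tested genes (5.22% higher and 7.02% lower). DESeq2 called 0 of the 10, beside 14 higher and 50 lower among the 14682 tested genes, and gave no adjusted p to 2 of the 10. It gave none of the 10 an unadjusted p under 0.05, and the share of all tested genes under that limit by DESeq2 was not counted. The log2 fold changes (EGCG over control) ran from -0.67 (Phlda3) to 0.19 (Bbc3) with a median of -0.04, and the median of their absolute values was 0.11, against 0.13 over all tested genes. The EGCG libraries lay wholly on one side of the control libraries for 6 of the 10 genes, 2 higher and 4 lower, and this held for 42.7% of all tested genes. With 2 libraries against 2, an exact permutation test of a single gene cannot give a two-sided p below 0.333.

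**Figure D1:**
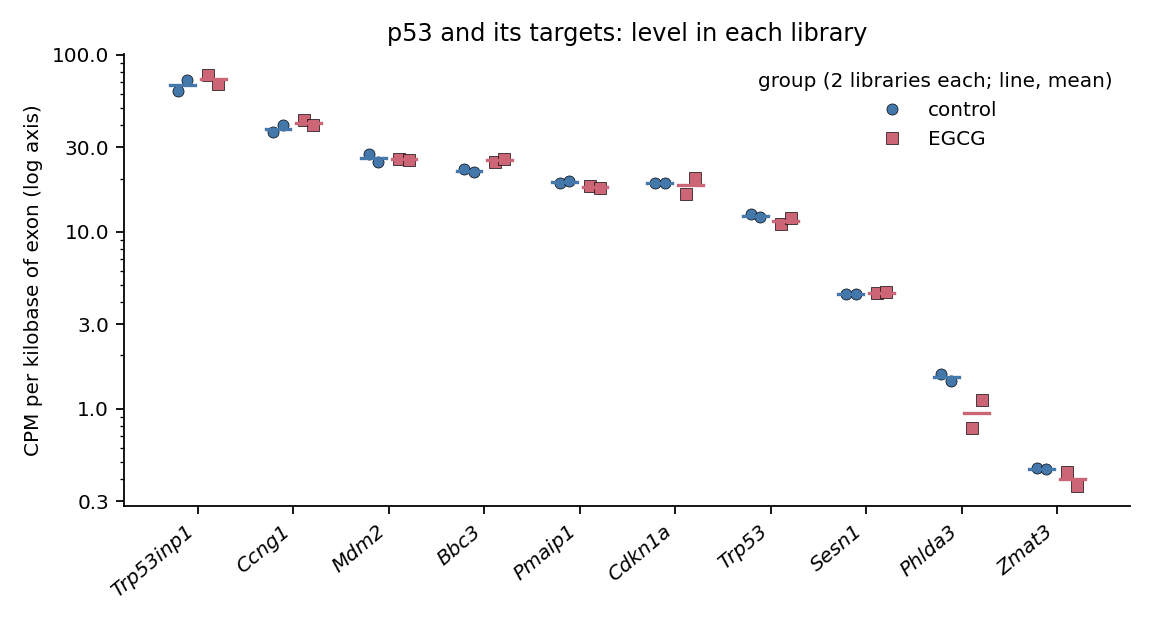
Level of Trp53 and its 9 targets in each library, as CPM per kilobase of exon on a log axis; circles are the 2 control libraries, squares the 2 EGCG libraries and lines their means. In control, the genes run from 67.4 (Trp53inp1) to 0.457 (Zmat3) CPM per kb, and the groups sit close together for every gene except Phlda3.

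For all 10 genes the 95% interval of the fold change ended below a 1.5-fold increase, and the highest upper end was 1.30-fold (Bbc3). For 8 of the 10 it also ended above a 1.5-fold decrease; the exceptions were Zmat3 and Phlda3, the genes with the fewest reads. An increase of 1.5-fold or more in any of the 9 targets was thus outside the interval that the spread between these 4 libraries gives.

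**Figure D2:**
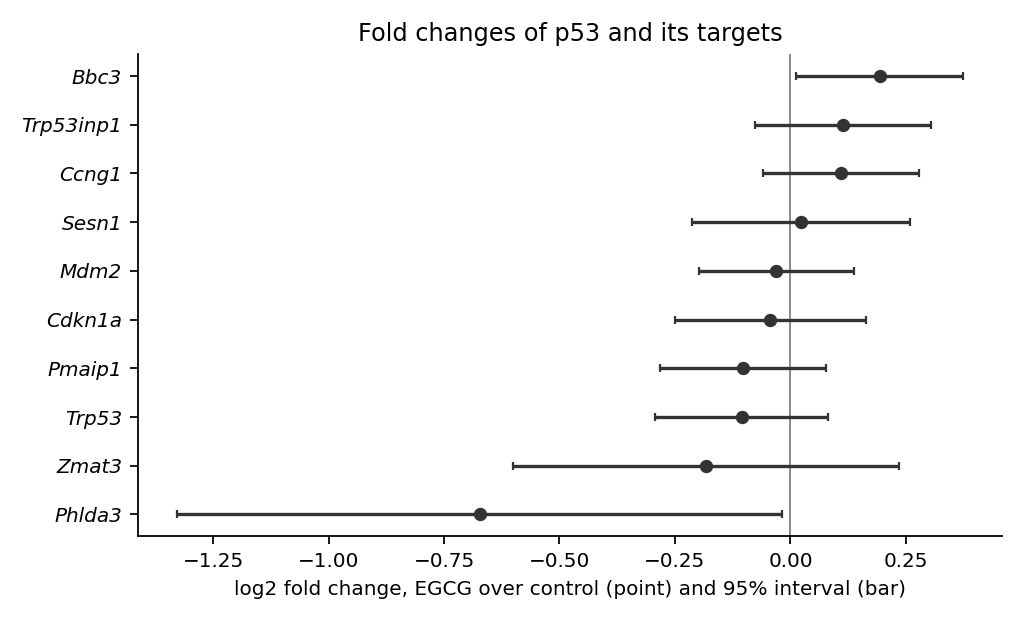
Log2 fold change of each gene (point) with its 95% interval (bar) from edgeR's quasi-likelihood fit; the grey line marks no change. The intervals of 8 genes cross the line, and those of Bbc3 and Phlda3 end just beside it on opposite sides, at 0.01 and -0.02.

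The genes differed far more from each other than between the groups. Per kilobase of exon, Trp53inp1 had the highest level (67.4 ± 6.92 CPM per kb in control, SD, n = 2), above 94.4% of tested genes, followed by Ccng1 (38.35 ± 2.63) and Mdm2 (26.25 ± 2.04). Bbc3 (22.2 ± 0.546), Pmaip1 (19.1 ± 0.278) and Cdkn1a (18.85 ± 0.0208) came next, then Trp53 (12.35 ± 0.421) and Sesn1 (4.46 ± 0.0105). The lowest were Phlda3 (1.51 ± 0.103) and Zmat3 (0.457 ± 0.00329), the last above 11.7% of tested genes only. This order held in all 4 libraries between neighbours except for Mdm2 and Bbc3 and for Pmaip1 and Cdkn1a, which changed places in 1 library each and whose ranges overlapped. The order in the EGCG libraries was the same but for Cdkn1a, whose mean (18.3 CPM per kb) stood above that of Pmaip1 (17.8). The order depends on the length used, which was that of all annotated exons of a gene. In CPM alone, Zmat3 (5.23 in control) stood above Phlda3 (2.35), and Pmaip1 (52.3) above Bbc3 (47.1).

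The regulator and its feedback genes come first. Trp53 (ENSMUSG00000059552, chr11:69580359-69591873, plus strand, GRCm38) was at 51.2 and 48.7 CPM in the control libraries and 44.8 and 48.1 CPM in the EGCG libraries. Both EGCG libraries were thus lower than both control libraries, by a margin smaller than the gap between the EGCG libraries. The log2 fold change was -0.11 (standard error 0.09, 95% interval -0.29 to 0.08), with an adjusted p of 0.675 by edgeR, and it was -0.05 without EGCG replicate 1 and -0.07 without control replicate 1. The mRNA level does not show the amount of p53 protein. Of the 31-base words in Trp53 transcripts, 10.2% also occur in transcripts of other genes, among them the pseudogene Trp53-ps, which itself had only 1 and 5 counts in control and 10 and 9 counts with EGCG.

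Mdm2 (ENSMUSG00000020184, chr10:117688875-117710758, minus strand), which degrades p53, was at 140.7 and 126.1 CPM in control and 131.7 and 129.6 CPM with EGCG. The EGCG libraries lay between the control libraries, and the log2 fold change was -0.03 (standard error 0.08, adjusted p of 0.919 by edgeR). Its direction turned without control replicate 1 (0.06), and it was -0.105 without control replicate 2. The ratio of Mdm2 to Trp53, per kilobase of exon, was 2.19 and 2.06 in control and 2.34 and 2.15 with EGCG, so that EGCG replicate 1 lay above and EGCG replicate 2 within the range of the control libraries. Mdm2 carries the exact half-site GAACTTGCCT in the promoter window of its upstream start, chr10:117710935-117710944.

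Ccng1 (ENSMUSG00000020326, chr11:40748552-40755311, minus strand) encodes cyclin G1, which brings a phosphatase to Mdm2 and so acts in the same feedback. It was at 128.2 and 141.2 CPM in control and 150.0 and 140.5 CPM with EGCG. The groups overlapped, since EGCG replicate 2 lay below control replicate 2. Its log2 fold change of 0.11 (standard error 0.08, adjusted p of 0.623 by edgeR) moved to 0.18 when control replicate 2 was left out and to 0.05 or 0.06 when control replicate 1 or EGCG replicate 1 was.

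Cdkn1a (ENSMUSG00000023067, chr17:29090976-29100727, plus strand) encodes p21, the inhibitor of cyclin-dependent kinases through which p53 stops the cell cycle. It was at 67.0 and 66.9 CPM in control and 58.3 and 71.7 CPM with EGCG. The EGCG libraries therefore lay on either side of nearly equal control libraries. The log2 fold change was -0.04 (standard error 0.10, 95% interval -0.25 to 0.16), with an adjusted p of 0.901 by edgeR. It was 0.10 without EGCG replicate 1 but -0.20 when EGCG replicate 2 was removed, so that the sign rests on which EGCG library is kept. Part of the exons (7.68%) is overlapped by an antisense gene model of a later annotation, and the counting did not use strand.

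**Figure D3:**
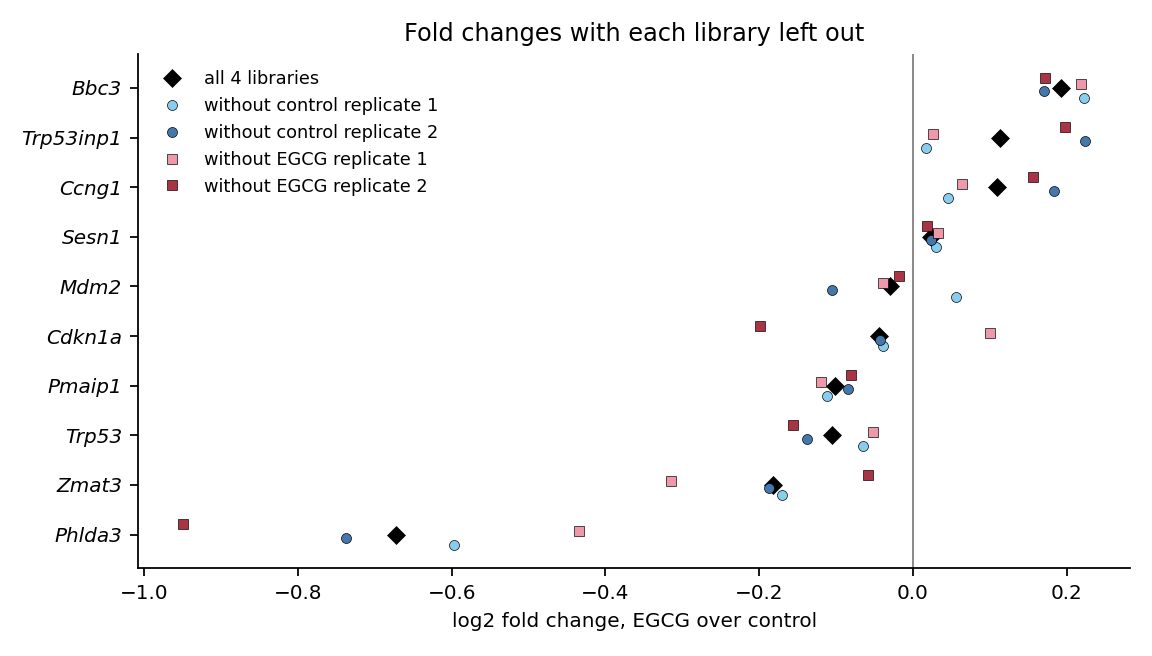
Log2 fold change of each gene with all 4 libraries (diamonds) and with each library left out (circles, a control library; squares, an EGCG library). Cdkn1a moves from -0.20 to 0.10 and Phlda3 from -0.95 to -0.43 depending on the library left out, whereas Sesn1 stays within 0.02 and 0.03.

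Of the genes for stress and growth control, Sesn1 moved least when a library was left out. Sesn1 (ENSMUSG00000038332, chr10:41809935-41908424, plus strand) encodes sestrin 1, which restrains mTORC1 under stress, and was at 17.8 and 17.7 CPM in control and 17.98 and 18.14 CPM with EGCG. Although the groups did not overlap, the log2 fold change was 0.02 (standard error 0.11, 95% interval -0.21 to 0.26, adjusted p of 0.959 by edgeR).

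Trp53inp1 (ENSMUSG00000028211, chr4:11156431-11174379, plus strand) encodes a stress protein of the nucleus and of autophagosomes that enhances p53-dependent cell death. It was at 404.7 and 468.1 CPM in control and 500.2 and 443.7 CPM with EGCG. Each group held 1 library in the range of the other, and the log2 fold change was 0.11 (standard error 0.09, adjusted p of 0.659 by edgeR). Leaving out control replicate 1 gave 0.02, leaving out EGCG replicate 1 gave 0.03 and EGCG replicate 2 gave 0.20, and leaving out control replicate 2 gave 0.22 (unadjusted p of 0.0262, adjusted p of 0.261 by edgeR, against adjusted p values up to 0.989 over the alternatives).

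Zmat3 (ENSMUSG00000027663, chr3:32334792-32366014, minus strand) encodes a zinc finger protein that binds RNA and regulates splicing. Its counts were 96 and 93 in control and 91 and 75 with EGCG, or 5.26 and 5.20 CPM against 5.02 and 4.20 CPM. The groups did not overlap, but EGCG replicate 1 was close to the control libraries. The log2 fold change was -0.18 (standard error 0.19, 95% interval -0.60 to 0.24, adjusted p of 0.761 by edgeR) and moved to -0.05 with a correction for gene length and to -0.06 without EGCG replicate 2 or -0.31 without EGCG replicate 1. At 75 counts, the counting error of a single library alone is 11.5%.

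Phlda3 (ENSMUSG00000041801, chr1:135766119-135769136, plus strand), which encodes a small protein with a pleckstrin homology domain that opposes AKT, had the largest difference of the 10 genes. It had 45 and 40 counts in control and 22 and 31 counts with EGCG, or 2.46 and 2.24 CPM against 1.21 and 1.74 CPM. Both EGCG libraries lay below both control libraries, with a fold change of 0.627 (log2 fold change -0.67, standard error 0.31, 95% interval -1.33 to -0.02). An absolute log2 fold change above this one was found in 4.08% of all tested genes. The unadjusted p was 0.0450 and the adjusted p 0.4003 by edgeR, and the unadjusted p ran from 0.0245 to 0.260 over the alternatives. The log2 fold change was -0.43 without EGCG replicate 1, the library with the fewest Phlda3 reads. The summed levels of 5 of the 12 marker lists were also lower in both EGCG libraries than in both control libraries, although single markers in them overlapped between the groups. These were the macrophage and endothelial lists given above (7 of 7 and 3 of 3 tested markers with a negative log2 fold change) and those of monocytes and monocytic MDSCs (5 of 6), eosinophils (3 of 3) and platelets (4 of 4). The monocyte sums were 1378 and 1312 CPM in control and 1214 and 1279 CPM with EGCG, those of eosinophils 1047 and 901.5 against 878.7 and 741.7 CPM, and those of platelets 36.3 and 39.3 against 32.43 and 31.97 CPM. Most of the platelet sum was Itga2b (log2 fold change -0.28), while Pf4, Ppbp and Gp9 were at -0.04, -0.11 and -0.05. Of the endothelial markers, Cdh5 (log2 fold change -0.87, unadjusted p of 0.000614, adjusted p of 0.103 by edgeR) and Kdr (-0.75, unadjusted p of 0.00547, adjusted p of 0.223) differed by more than Phlda3 did, while most of the endothelial sum was Pecam1 (-0.26). The bead sort aimed at MDSCs, not at macrophages, endothelial cells, eosinophils or platelets. After it, the paper reports that MDSCs were most of the leukocytes. The part of the cells of these 5 lists in the Phlda3 difference was not tested.

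The last pair of members acts in apoptosis. Bbc3 (ENSMUSG00000002083, chr7:16308393-16318205, plus strand) encodes PUMA, a BH3-only protein that neutralizes BCL2 and its relatives. It had 875 and 827 counts in control and 961 and 977 counts with EGCG, or 47.1 ± 1.16 CPM against 53.85 ± 1.20 CPM (SD, n = 2 each). Both EGCG libraries exceeded both control libraries by more than the gap within either group. The fold change was 1.14 (log2 fold change 0.19, standard error 0.08, 95% interval 0.01 to 0.37), with an unadjusted p of 0.0380 and an adjusted p of 0.382 by edgeR, and 34.8% of all tested genes had a larger absolute log2 fold change. The unadjusted p was under 0.05 in 8 of the 11 alternatives with all libraries. It was 0.0980 by edgeR with library size only, 0.0577 with the replicate block and length correction, and 0.0936 by DESeq2. The log2 fold change was between 0.17 and 0.22 with any library left out, the narrowest range relative to its size among the 10 genes, and the adjusted p between 0.350 and 0.758 over all alternatives. The summed levels of 2 of the 12 marker lists were likewise higher in both EGCG libraries than in both control libraries: those of neutrophils and granulocytic MDSCs given above (8 of 10 markers with a positive log2 fold change, EGCG replicate 2 only just above control replicate 2) and those of T cells (3 of 5, 88.4 and 100.4 CPM in control and 101.2 and 104.0 CPM with EGCG). Most of the neutrophil sum was S100a8 (log2 fold change 0.38) and S100a9 (0.21), while Cxcr2 (-0.01) and Ltf (-0.07) were lower. Most of the T cell sum was Cd3d (75.25 and 85.95 CPM in control, 87.69 and 90.19 CPM with EGCG). The other T cell markers had far lower levels and went both ways: Cd3e (0.11) and Cd3g (0.14) were higher, Cd4 (-0.06) and Cd8a (-0.25) lower. The bead sort aimed at MDSCs rather than T cells, and the paper reports that MDSCs were most of the leukocytes after it. The part of the cells of these 2 lists in the Bbc3 difference was not tested.

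Pmaip1 (ENSMUSG00000024521, chr18:66458533-66465565, plus strand) encodes NOXA, a BH3-only protein that binds MCL1. It was at 51.8 and 52.8 CPM in control and 49.4 and 48.0 CPM with EGCG. Both EGCG libraries were lower than both control libraries, and the log2 fold change was -0.10 (standard error 0.08, 95% interval -0.28 to 0.08, adjusted p of 0.673 by edgeR). Per kilobase of exon, the ratio of Bbc3 to Pmaip1 was 1.19 and 1.13 in control and 1.38 and 1.46 with EGCG, a description of these libraries for which no test was made.

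The wider pathway was described through 6 lists with 84 genes besides the members, a few of them in more than 1 list, of which 73 were tested. Of these 73 genes, 1 was called as changed, Mki67, and it was lower with EGCG (beside 0.136% of all tested genes called lower). At an unadjusted p under 0.05 there were 12 of the 73 (5 higher and 7 lower), beside 12.2% of all tested genes (5.22% higher and 7.02% lower). DESeq2 gave 1 call, beside 14 higher and 50 lower among all 14682 tested genes, and no adjusted p to 25 of the 73. It gave 6 of the 73 an unadjusted p under 0.05, for which its share over all tested genes was not counted. A log2 fold change above 0 was seen for 41 of the 73, against 50.6% of all tested genes.

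**Figure D4:**
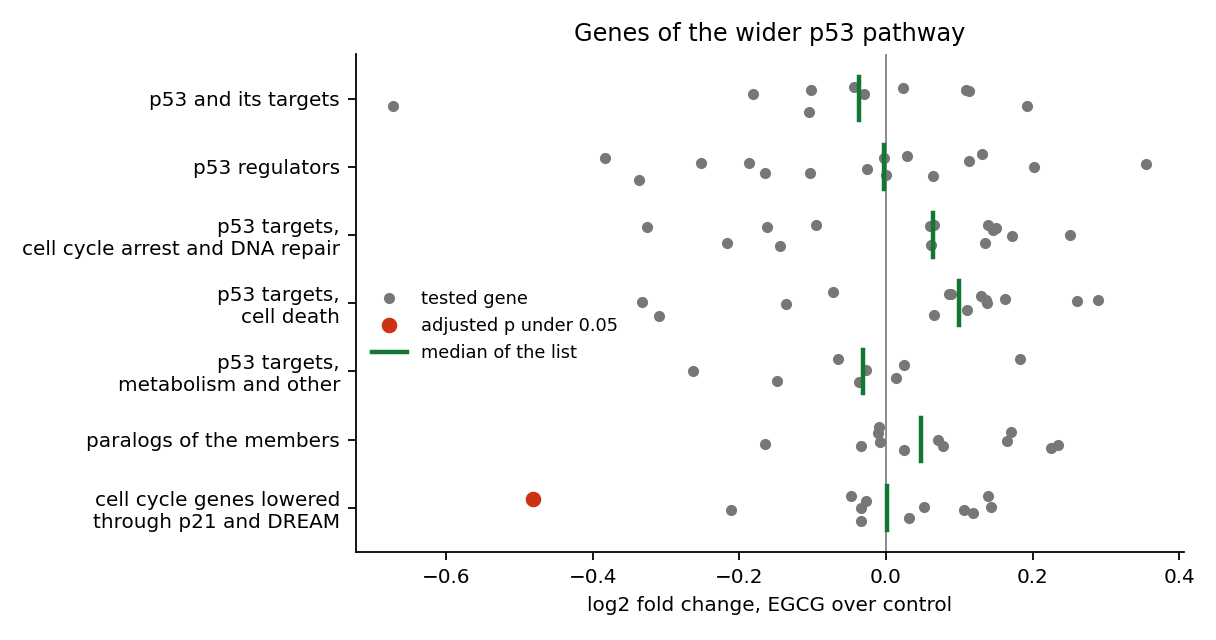
Log2 fold changes of p53 and its targets and of the tested genes in 6 lists of the wider pathway; each dot is a gene, a red dot a gene with an adjusted p under 0.05 and a green line the median of the list. The medians lie between -0.04 and 0.10, and the red dot is Mki67.

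Among 15 tested regulators of p53, 7 were higher and 8 lower, with a median log2 fold change of -0.0022. Both edgeR and DESeq2 called 0 of them, and DESeq2 gave no adjusted p to 5. At an unadjusted p under 0.05 were 3 by edgeR, beside 12.2% of all tested genes, and 1 by DESeq2. The regulator with the highest level per length was Usp7, the enzyme that removes ubiquitin from p53 and Mdm2, whose log2 fold change was -0.10 (standard error 0.07) and moved to -0.014 with the length correction and to -0.06 without EGCG replicate 1. Hipk2, a kinase that phosphorylates p53 for apoptosis, was at 31.98 and 28.5 CPM in control and 23.4 and 22.9 CPM with EGCG, a log2 fold change of -0.38 (standard error 0.10, adjusted p of 0.162 by edgeR). This kinase had an adjusted p of 0.0372 without control replicate 2, the lowest over the alternatives, which ran up to 0.659. Trp53bp1, a DNA damage mediator, had a log2 fold change of -0.25 (standard error 0.10), and Rchy1, a ubiquitin ligase for p53, one of 0.20 (standard error 0.09), with adjusted p values of 0.335 and 0.376 by edgeR. With the length correction Trp53bp1 was at -0.09 (unadjusted p of 0.369), and without control replicate 1 Rchy1 was at 0.12 (unadjusted p of 0.242). Cdkn2a, whose product ARF inhibits Mdm2, had too few reads to be tested (9 and 8 counts in control, 2 and 10 with EGCG).

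All 14 targets for arrest and DNA repair were tested (median log2 fold change 0.06, 9 higher and 5 lower), with 0 called by edgeR or DESeq2. At an unadjusted p under 0.05 were 3 by each, beside 12.2% of all tested genes by edgeR. DESeq2 gave no adjusted p to 7. Gadd45a, a growth arrest gene induced by DNA damage, was at 70.3 and 72.9 CPM in control and 81.9 and 88.6 CPM with EGCG (log2 fold change 0.25, standard error 0.08, adjusted p of 0.230 by edgeR). The polo-like kinases Plk2 and Plk3 had log2 fold changes of -0.33 (standard error 0.12) and -0.22 (standard error 0.08), with adjusted p values of 0.294 and 0.306 by edgeR. Without EGCG replicate 2, Plk2 was at -0.51, whereas it was at -0.16 without EGCG replicate 1. Over the alternatives with all libraries, its adjusted p by edgeR ran from 0.1605 (library size only) to 0.738 (no low count filter). Btg2, an antiproliferative gene and the one with the highest level per length in this list (93.7 CPM per kb), had a log2 fold change of 0.15 (standard error 0.08, adjusted p of 0.472 by edgeR), which was 0.08 without EGCG replicate 1. 

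For the 14 targets in cell death, all tested, the median log2 fold change was 0.10, with 10 higher and 4 lower. Of all tested genes, 50.6% were higher. Both edgeR and DESeq2 called 0 of the 14, and DESeq2 gave no adjusted p to 3. At an unadjusted p under 0.05 were 2 by edgeR, beside 12.2% of all tested genes, and 0 by DESeq2. Aen, an exonuclease of apoptotic cells, was at 18.6 and 16.8 CPM in control and 14.4 and 14.2 CPM with EGCG, a log2 fold change of -0.31 (standard error 0.12, adjusted p of 0.322 by edgeR). Trp53i13, a p53-inducible gene, had a log2 fold change of 0.26 (standard error 0.11, adjusted p of 0.370 by edgeR). Bax, which opens the mitochondrial outer membrane, had the highest level per length (64.65 CPM per kb).

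Of the 13 targets in metabolism and other functions, 8 were tested and 0 were called by edgeR or DESeq2 (0 at an unadjusted p under 0.05 by either; DESeq2 gave no adjusted p to 6 of the 8), with a median log2 fold change of -0.03. Sesn2, the sestrin with the highest level in this list (31.95 CPM per kb), was at 108.7 and 111.5 CPM in control and 108.8 and 115.2 CPM with EGCG, so that the groups overlapped. Eda2r, Gls2, Ak1 and Trp53cor1 had fewer than 10 counts in every library, and Sco2 had 0 counts in all 4, which allows up to 3 counts per library.

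Both relatives of p53 in the genome were at the floor of 3 counts or fewer in every library: Trp63 had 0 and 0 counts in control and 1 and 2 with EGCG, and Trp73 had 2 and 0 and 3 and 0. Of 17 paralogs of the members, 12 were tested, with a median log2 fold change of 0.05 and 0 calls by edgeR or DESeq2. DESeq2 gave no adjusted p to 3 and had 0 at an unadjusted p under 0.05. By edgeR there were 2, beside 12.2% of all tested genes. Both at an unadjusted p under 0.05 were higher: Cdkn1b, which encodes the cell cycle inhibitor p27, was at 177.4 and 182.7 CPM in control and 206.7 and 198.8 CPM with EGCG (log2 fold change 0.17, standard error 0.07, adjusted p of 0.372 by edgeR). Ccng2, which encodes cyclin G2, had a log2 fold change of 0.17 (standard error 0.08, adjusted p of 0.406 by edgeR), which was 0.10 (unadjusted p of 0.281) without control replicate 1. These compare with -0.04 for Cdkn1a and 0.11 for Ccng1, and the differences between paralogs were not tested. Trp53inp2, the paralog of Trp53inp1 that acts in autophagy, had the highest level of the list (84.8 CPM per kb) and a log2 fold change of 0.08 (standard error 0.07), which ran from 0.04 to 0.12 as control replicate 2 or control replicate 1 was left out and was 0.12 with the length correction.

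A last list held 12 cell cycle genes that p53 is known to lower through p21 and the DREAM repressor complex, and all were tested. Mki67, which encodes the proliferation antigen Ki-67, fell from 293.0 and 279.4 CPM in control to 208.6 and 201.3 CPM with EGCG (log2 fold change -0.48, standard error 0.07, adjusted p of 0.0245 by edgeR). Without a filter on low counts its log2 fold change was still -0.48 but its adjusted p 0.525, and with the length correction its log2 fold change was -0.36 (adjusted p of 0.0889), and adjusted p values ran from 4.3e-05 to 0.525 over all alternatives. Top2a, the topoisomerase of dividing cells, had a log2 fold change of -0.21 (standard error 0.08, adjusted p of 0.318 by edgeR), which was -0.12 without control replicate 2 and -0.10 with the length correction. The list as a whole did not go with Mki67: 6 genes were higher and 6 lower, with a median log2 fold change of 0.0019. Ccnb2, the mitotic cyclin with the highest level per length in this list, was at 35.5 and 36.2 CPM in control and 37.5 and 41.5 CPM with EGCG.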

How the data were processed

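RNA-seq was measured in 2 control and 2 EGCG libraries. The authors aligned reads to GRCm38 with STAR 2.6.0c, counted them per gene with featureCounts 1.6.2 on Ensembl release 91 and deposited whole-number counts without normalization; the authors named the table non-stranded. There were 0 columns of other samples and 0 rows that name no gene. Low genes were removed with filterByExpr (minimum count of 10), TMM scaled the libraries, and the groups were tested over all genes in edgeR 4.0.16 (quasi-likelihood test, legacy fit; R 4.3.3), with Benjamini-Hochberg adjustment over 14682 genes and a threshold of 0.05. Standard errors are the log2 fold change divided by the square root of F, and 95% intervals use the test's t distribution. The test and the length correction (loess, span of 0.4) were tested on simulated data. Exonic lengths, positions and shared 31-base words were taken from GENCODE M21 (GRCm38; 53360 of 53465 identifiers matched). Depth was about the same in all libraries (17767318 to 18390385 counts); at 22 counts, the fewest of any member, counting error is 21.3%. Intervals and floors cover counting error and library spread only.

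All 10 members are named, and from each list every gene with an adjusted p under 0.05, up to 2 genes per direction with the smallest unadjusted p under 0.05, and the gene with the highest level per length. Genes not tested were named after their counts were seen. The members and lists were chosen with earlier results of these data known. Cop1 was matched by identifier to its older name. Alternatives were other filters, scalings and fits, DESeq2 1.42.0, the length correction, a replicate block and leaving out each library. Sequences came from the RefSeq promoter table (GRCm38.p6).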

Additional observations from a re-analysis of the deposited data

How the results depend on the processing

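None of the 10 genes was called where it had an adjusted p, in the 11 alternatives with all libraries or with a library left out (Phlda3 was not tested with a minimum count of 50, and DESeq2 gave Phlda3 and Zmat3 none), and 106 of 109 values under those alternatives and 38 of 40 with a library left out kept their direction. Reversed were Mdm2 with the length correction (0.0072, or 0.0084 with the replicate block too) and Sesn1 with library size only (-0.012), as was Sesn2 there (-0.010). With library size only, the median log2 fold change of all tested genes also moved, from 0.0031 to -0.032. Sesn1 and Sesn2 were near 0 in the main fit (0.023 and 0.025), and no other member reversed under that scaling. With a library left out, the log2 fold change ran from -0.105 to 0.056 for Mdm2, from -0.20 to 0.10 for Cdkn1a and from -0.016 to 0.068 for Sesn2. Between 3 and 5 members were higher under the alternatives. The cause was not tested.

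Genes called higher and lower, 2 and 20 in all, numbered 0 and 0 without a filter, 1 and 9 with a minimum count of 50, 16 and 135 with library size only, 2 and 9 with upper-quartile scaling, 6 and 25 with the newer fit, 14 and 49 with the robust fit, 14 and 50 with DESeq2, and 2 and 3 with the length correction. With a library left out they ran from 5 to 119 higher and from 72 to 235 lower. Same-numbered libraries share only a number (correlation of their deviations 0.0336 over 14682 genes, 2 pairs); the replicate block gave 6 and 24 calls, 1 and 2 with the length correction too, and 0 members in both.

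The list median moved to -0.067 for metabolism with library size only and to 0.11 for paralogs with the length correction, with or without the block. The median of all tested genes was -0.032 with library size only and 0.033 with the length correction, against 0.0031 in the main fit. With library size only, the other list medians were also lower. They were -0.039 for regulators, 0.028 for arrest and repair, 0.065 for cell death, 0.013 for paralogs and -0.033 for cell cycle genes. With a library left out, medians ran from -0.060 to 0.0024 for regulators, 0.015 to 0.16 for arrest and repair, 0.029 to 0.15 for cell death, -0.065 to 0.015 for metabolism, -0.011 to 0.10 for paralogs and -0.049 to 0.093 for cell cycle genes. The call of Mki67, 1 in its list, was 0 without a filter, with the length correction and with that and the block. Depth limits Phlda3 and Zmat3 most, and 2 libraries a group limit all.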
